A study of Mus musculus with 25 samples.

Results

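The 10 genes described here are Rps3a1, Rps3a2, Rps3a3, Hist1h2al, Apon, Pdzd7, Zfp991, Wnt8b, Stk25 and Lrmda, taken by symbol from a table of 49452 gene identifiers. They had been picked from earlier results of these data as genes whose RNA level stood apart in 1 of 3 double mutants. The difference of each gene between that double mutant and the other groups is therefore given as a description, with no test. All 10 passed the filter on low values (at least 0.2 FPKM in at least 5 libraries), as did 19266 genes in all. FPKM is the number of fragments per kilobase of transcript, scaled to the size of the library.

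RNA was sequenced from distal colon of C57BL/6 mice aged 6 weeks, 25 libraries from 5 genotypes with 5 mice each. The Nemofl/fl mice carry a floxed gene for NEMO (gene symbol Ikbkg), and the NEMOIEC-KO mice lack NEMO in intestinal epithelial cells and have colitis. The other 3 genotypes are NEMOIEC-KO mice that are also labelled Il12b-/-, Il12a-/- or Il23a-/-, so the epithelial loss of NEMO is shared by 4 of the 5 groups. The series asks how loss of the cytokine subunits p40, p35 and p19 alters inflammation of that colon. The Cre driver, the design of the mutant alleles and the strain in which they were made are not given in the sources used here.

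Each named double mutant removes 1 gene of the IL-12 family. Il12b encodes p40, which pairs with p35 (Il12a) to form IL-12 and with p19 (Il23a) to form IL-23. An allele made by gene targeting can bring along a stretch of chromosome from the strain of the targeted cells, and genes in that stretch, called passengers, then differ from the recipient strain. Retrocopies are DNA copies of a spliced messenger RNA inserted elsewhere in the genome. They lack introns and can be so like their parent that short sequencing reads match both.

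The targeted genes do not all follow the labels at the RNA level. Ikbkg RNA was lower in NEMOIEC-KO than in Nemofl/fl colon (log2 difference -1.09, limma adjusted p = 4.1e-06). Il12b RNA was higher in the libraries labelled Il12b-/- than in NEMOIEC-KO (1.15, adjusted p = 1e-07), and Il12a RNA was higher in those labelled Il12a-/- (0.87, adjusted p = 0.023). Il23a RNA did not pass the test in those labelled Il23a-/- (-0.11, adjusted p = 0.9). Whole-gene FPKM cannot show which exons an allele lacks, so the 3 genotypes are named below as labelled. The summed FPKM of a library lay between 653776 and 744280, and relative depth, read from the smallest steps between values, lay between 0.7 and 1.16, with the lowest in Il23a-/- replicate 5. A library code in the labels, whose meaning is not stated, is shared by NEMOIEC-KO replicates 3 to 5 and every Nemofl/fl library, and another by NEMOIEC-KO replicates 1 and 2 and all double mutant libraries but Il23a-/- replicate 5. Calls between a double mutant and NEMOIEC-KO therefore partly cross codes, and a fit within 1 code, which keeps 2 NEMOIEC-KO libraries, called 741 genes in place of 3833 for Il12b-/-, 29 in place of 1851 for Il12a-/- and 0 in place of 16 for Il23a-/-. No double mutant library shares a code with Nemofl/fl, so differences between a double mutant and Nemofl/fl cannot be told apart from the code. NEMOIEC-KO against Nemofl/fl crosses codes for NEMOIEC-KO replicates 1 and 2. All 9 colonocyte and all 6 goblet cell markers were found above 0.2 FPKM in the mean of every group.

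By the values that chose them, 4 genes mark the libraries labelled Il12a-/- (Rps3a1, Rps3a2, Rps3a3 and Hist1h2al), 1 marks Il23a-/- (Apon) and 5 mark Il12b-/- (Zfp991, Lrmda, Pdzd7, Wnt8b and Stk25). The marked genotype is the double mutant farthest in mean log2 level from the mean of the other 4 genotypes, and Nemofl/fl and NEMOIEC-KO were not candidates. Wnt8b stood apart upward in Nemofl/fl (1.21 to 1.9 FPKM), and Stk25 was highest in NEMOIEC-KO (mean 332 FPKM). These genes therefore mark Il12b-/- only among the double mutants. For 7 of the 10, all 5 libraries of the marked genotype lay above or below all other 20 libraries. Genes of this kind that also differ from each of the other 4 genotypes at an adjusted p below 0.05 are called single-genotype genes here, a descriptive label that includes these 7. They made up 0.0571% of the tested genes for Il12a-/-, 0.00519% for Il23a-/- and 0.0779% for Il12b-/-. Pdzd7, Wnt8b and Stk25 overlapped with other groups. Since the same differences chose the genes, nothing is read from this count.

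**Figure D1:**
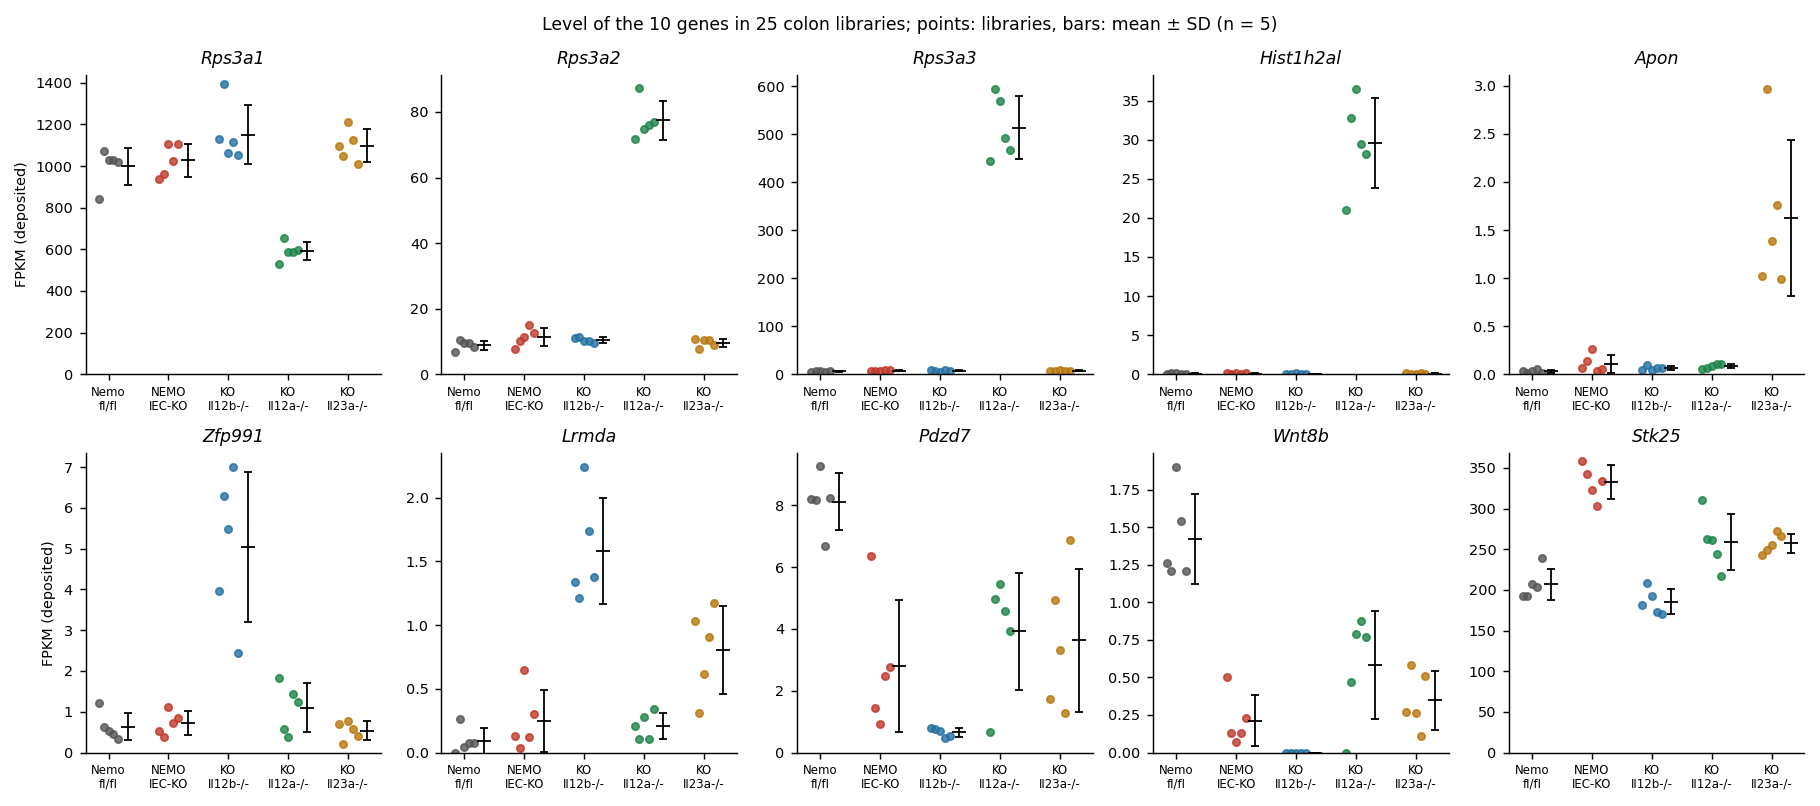
FPKM of each of the 10 genes in all 25 libraries, by genotype, on linear axes from 0; points are single mice and bars give the mean ± SD (n = 5). Rps3a2, Rps3a3 and Hist1h2al stand out upward and Rps3a1 downward in Il12a-/-, Apon stands out in Il23a-/-, Zfp991 and Lrmda in Il12b-/-, and the points of Pdzd7, Wnt8b and Stk25 in Il12b-/- overlap with those of other genotypes or lie next to them.

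Rps3a1 encodes ribosomal protein S3A of the small ribosomal subunit, and Rps3a2 and Rps3a3 are annotated as processed pseudogenes of it. In GRCm38 (GENCODE M21), Rps3a1 lies at chr3:86137940-86142702 on the minus strand. Rps3a2 lies at chr14:88123017-88123808 on the minus strand. Rps3a3 lies at chr13:108670603-108671397 on the plus strand, inside the span of Pde4d. The sequences are shown because the 3 genes are close to identical and their values moved in opposite directions. Over the 795 coding bases of Rps3a1, Rps3a2 differs at 4 of 792 compared positions (T216C, T534C, A645T and T668C), which is 99.5% identity. Rps3a3 differs at 9 of 795 (T216C, T260C, C363T, A427T, T534C, G582T, A660G, C762T and G792A), which is 98.9% identity. In these symbols the base of Rps3a1 comes first, then its position counted from 1 at the first base of the start codon, then the base of the copy. Bases 179 to 298 of the coding sequence and the matching bases of the copies (chr14:88123511-88123630 on the minus strand and chr13:108670781-108670900 on the plus strand) follow, with capitals at the positions where a copy and Rps3a1 differ:
Rps3a1: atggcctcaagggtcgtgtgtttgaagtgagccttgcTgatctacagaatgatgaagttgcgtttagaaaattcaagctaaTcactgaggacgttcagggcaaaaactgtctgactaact
Rps3a2: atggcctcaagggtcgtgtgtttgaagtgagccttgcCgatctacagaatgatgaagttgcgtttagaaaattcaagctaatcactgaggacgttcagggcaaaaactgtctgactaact
Rps3a3: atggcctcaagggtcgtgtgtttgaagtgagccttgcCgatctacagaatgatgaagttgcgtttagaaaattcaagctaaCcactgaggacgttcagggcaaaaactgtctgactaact

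Reads were 76 bases long, and many stretches of that length do not tell the copies apart. Of the 717 windows of 76 bases along the compared part of Rps3a2, 65% are identical to Rps3a1, and of the 720 windows of Rps3a3, 31.4% are. How the authors' software placed fragments that match more than 1 copy is not given in the sources used here, so the values of these 3 genes are uncertain as measures of single loci. A sum over the 3 loci does not depend on how fragments were divided among them, provided each fragment was counted once.

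Rps3a1 was lower in the libraries labelled Il12a-/- than in all others. Its FPKM was 530.4, 654, 587, 586 and 599 in the 5 Il12a-/- libraries (591 ± 44, SD, n = 5). It was 843, 1074, 1027, 1028 and 1018 in Nemofl/fl, and 936, 964, 1106, 1026 and 1107 in NEMOIEC-KO. The highest Il12a-/- library lay below the lowest of the other 20. Means were 1151 ± 141 in Il12b-/-, 1098 ± 78 in Il23a-/-, 1028 ± 78.9 in NEMOIEC-KO and 998 ± 89.4 in Nemofl/fl (SD, n = 5 each), and these 4 groups overlapped. The log2 difference of Il12a-/- from the mean of the other 4 groups was -0.85 (SE 0.07), on the log2(FPKM + 0.5) scale used throughout.

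Both retrocopies were high in the same 5 libraries. Rps3a3 had 444, 595, 569.8, 493 and 468 FPKM in Il12a-/- (514 ± 65.4), against 4.38 to 8.7 in the other 20 libraries. Rps3a2 had 71.9, 87.4, 74.9, 75.9 and 77 FPKM in Il12a-/- (77.4 ± 5.9), against 6.85 to 15 elsewhere. No Il12a-/- library overlapped with any other for either gene. The log2 differences from the mean of the other 4 groups were 6.12 (SE 0.1) for Rps3a3 and 2.89 (SE 0.1) for Rps3a2. Per length, Rps3a3 came close to Rps3a1 in these 5 libraries, and Rps3a2 stayed well below both.

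Summed over the 3 loci, the signal did not set the Il12a-/- libraries apart. FPKM was multiplied by transcript length in kilobases (977, 792 and 795 bases for Rps3a1, Rps3a2 and Rps3a3) and added. The sum was 928, 1181, 1086, 1024 and 1018 in Il12a-/- (1048 ± 93.5, SD, n = 5). It was 1139 ± 138 in Il12b-/-, 1086 ± 77.6 in Il23a-/-, 1019 ± 78.6 in NEMOIEC-KO and 987 ± 88.9 in Nemofl/fl. All 5 groups overlapped. On the log2 scale the Il12a-/- sum differed from NEMOIEC-KO by 0.04 (SE 0.08), where Rps3a1 alone differed by -0.8. Against Nemofl/fl, Il12b-/- and Il23a-/- the differences of the sum were 0.09 (SE 0.08), -0.12 (SE 0.09) and -0.05 (SE 0.07). What changed was the division among loci. Rps3a1 held 55.2% ± 1.79 of the sum in Il12a-/- (range 52.8% to 57.4%), against group means of 98.5% to 98.8% elsewhere, and Rps3a3 held 38.9% ± 1.99, against 0.463% to 0.609%. The other annotated copies of Rps3a1 in the table (Gm5586, Gm13408 and Gm7600) did not exceed 0.392 FPKM in any library. Gm13408 was nonetheless higher in Il12a-/- (0.306 ± 0.0813 FPKM) than in the other groups (0.087 to 0.106), with a log2 difference of 0.43 (SE 0.11) from NEMOIEC-KO. Its other group means lie below the 0.2 FPKM of the filter. Its passing that filter leaned on the Il12a-/- libraries, so no p is given.

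**Figure D2:**
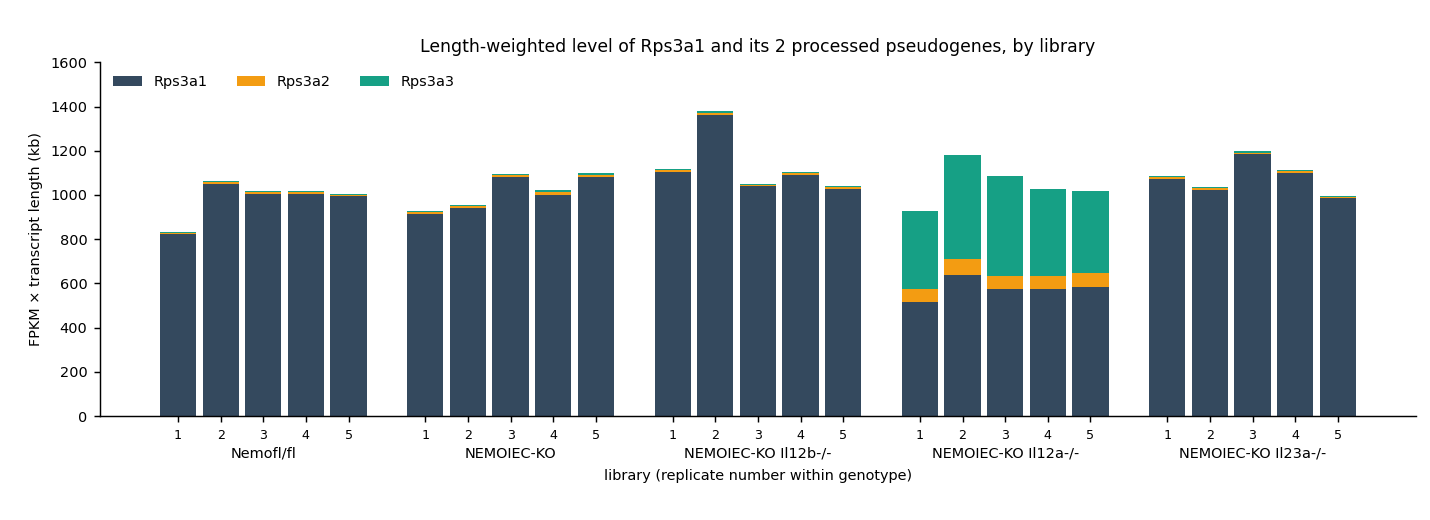
Length-weighted FPKM of Rps3a1, Rps3a2 and Rps3a3 in each library, stacked to their sum, by genotype, on a linear axis from 0. Bar heights overlap between genotypes (832 to 1062 in Nemofl/fl, 928 to 1181 in Il12a-/-), while the Rps3a3 portion is visible in the 5 Il12a-/- libraries and close to 0 in the other 20.

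Hist1h2al is annotated as a processed pseudogene of an H2A core histone gene at chr13:51202727-51203065 on the minus strand. It showed the sharpest on and off pattern among the 10 genes. Il12a-/- libraries had 21, 32.8, 36.5, 29.5 and 28.2 FPKM (29.6 ± 5.77, SD, n = 5), and the other 20 had 0 to 0.123. No other library came near. Its lowest values were whole multiples of 1 step (8 of 8 within 0.1 of a whole number), worth 0.108 FPKM at median depth, and taken as 1 fragment this gives 201, 333, 358, 231 and 287 fragments in Il12a-/- and 0 or 1 in each of the others. The fitted log2 difference was 5.77 (SE 0.1), a value that depends on the added 0.5 because the other groups lie near 0.

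The closest relatives of Hist1h2al are replication-dependent H2A genes on chromosome 3, the chromosome that holds Il12a. Over 339 bases it differs from Hist2h2aa1 (chr3:96245497-96246082) at 2 positions, T135C and G231T, with the base of Hist2h2aa1 first and positions counted from the first base of its start codon. That is 99.4% identity, and 42.4% of 264 windows of 76 bases are the same in both. Bases 105 to 261 of the Hist2h2aa1 coding sequence and the matching bases of Hist1h2al (chr13:51202820-51202976, minus strand) are printed because they hold both differences, marked by capitals:
Hist2h2aa1: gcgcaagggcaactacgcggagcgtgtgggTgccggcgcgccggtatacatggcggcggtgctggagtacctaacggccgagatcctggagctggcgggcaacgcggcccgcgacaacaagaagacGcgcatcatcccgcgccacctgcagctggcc
Hist1h2al: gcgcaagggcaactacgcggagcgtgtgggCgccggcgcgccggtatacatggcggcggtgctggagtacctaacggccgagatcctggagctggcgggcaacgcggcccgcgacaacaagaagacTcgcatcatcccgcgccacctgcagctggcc

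The relatives differed in signal. Gm20634 (chr3:96245554-96248509), a transcript that overlaps Hist2h2aa1 and is 99.4% identical to Hist1h2al over the same bases, averaged 4.36 ± 2.09 FPKM in Il12a-/- and 1.98 ± 0.772 in NEMOIEC-KO (log2 difference 0.94, SE 0.23, limma adjusted p = 0.015). It averaged 4.98 ± 0.911 in Nemofl/fl, so it does not mark Il12a-/-. Hist2h2aa2 was listed at 0 in every library and Hist2h2aa1 averaged at most 0.031 FPKM in any group. Hist2h2ac, 98.2% identical over the same bases, averaged 0.561 ± 0.125 FPKM in Il12a-/- and 0.0643 to 0.143 in the other groups (log2 difference from NEMOIEC-KO 0.76, SE 0.16). Its passing the filter of 0.2 FPKM likewise leaned on the Il12a-/- libraries, so no p is given. Library preparation selected polyadenylated RNA, which most replication-dependent histone messages are not. Of the 8 other H2A genes of histone cluster 1, 1 was higher in Il12a-/- than in NEMOIEC-KO (Hist1h2ac, 0.77, adjusted p = 0.017) and 0 were lower, the same counts as at an unadjusted p below 0.05, with a median log2 difference of 0.02 beside 0.07 over all genes.

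A parent or sister on chromosome 3 is common to all the Il12a-/- genes that lie elsewhere. Of the 11 single-genotype genes of Il12a-/-, 7 lie on chromosome 3 and 4 do not (Rps3a2, Rps3a3, Hist1h2al and Gm3608, the last named after its values were seen). All 4 of those have a copy of at least 95% identity over at least 80% of their length on chromosome 3. Among all tested genes off chromosome 3, 174 of 18178 (0.957%) have one. For Il12b-/-, 0 of 13 single-genotype genes off chromosome 11 have a copy on chromosome 11, where the share over all tested genes is 1.02%. These shares are descriptions of genes chosen by their values. They leave out Gm12663, an Il12b-/- single-genotype pseudogene on chromosome 11 itself, named after its values were seen. It averaged 1.26 ± 0.168 FPKM in Il12b-/- and 0.417 in the other 20 libraries. Its copy Ublcp1 (chr11:44454571-44470498, 99.4% identical) lies near Il12b (chr11:44400063-44414033). Ublcp1 averaged 25.2 ± 0.716 FPKM in Il12b-/- and 21.5 to 22.5 in the other groups.

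Gm3608 (chr1:105455971-105458829, a pseudogene) was likewise high in Il12a-/- beside a lower level of its parent. It averaged 6.9 ± 1.01 FPKM in Il12a-/- and 0.334 in the other 20 libraries, and is 99.5% identical to Capza1 on chromosome 3 (chr3:104822779-104864505), which encodes a subunit of the actin capping protein. Capza1 averaged 16.7 ± 5.72 FPKM in Il12a-/- and 24.7 to 27.2 in the other groups (log2 difference from NEMOIEC-KO -0.75, SE 0.17, limma adjusted p = 0.009). That call was lost within 1 library code (-0.75, adjusted p = 0.2), with the smooth muscle markers as a covariate (-0.47, adjusted p = 0.093) and with only both groups in the fit, where the difference stays the same by construction (adjusted p = 0.068). With the interferon gamma score described below as a covariate, the Capza1 difference was -0.22 (adjusted p = 0.79). Capza1 in Il12a-/- replicates 1 and 4 overlapped with other groups. Capza1 held 71.8% of the length-weighted sum with Gm3608 in Il12a-/- and 98.6% to 99% elsewhere. That sum averaged 73 ± 20 in Il12a-/- and 79.8 to 87.7 elsewhere, and the groups overlapped. Its log2 difference was -0.31 (SE 0.19) from NEMOIEC-KO and -0.24 to -0.17 from the other groups, negative throughout, unlike the Rps3a sum. Besides Rps3a1, the chromosome 3 single-genotype genes Gm15264 and Cd1d2 have copies, and neither copy was called lower. Tuft1, 98.6% identical to Gm15264, averaged 20.2 ± 1.42 FPKM in Il12a-/- and 24 ± 1.93 in NEMOIEC-KO (-0.24, limma adjusted p = 0.076). Cd1d1, 96.4% identical to Cd1d2, averaged 5.07 ± 1.49 and 3.95 ± 1.12 (0.32, adjusted p = 0.24). The part that shared reads or sequence differences between mouse strains have in these values was not tested.

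The lower Rps3a1 was not shared by other ribosomal protein genes that passed the test in Il12a-/-. Of 81 other cytosolic ribosomal protein genes, 11 were higher, 0 were lower and the rest did not pass against NEMOIEC-KO, with a median log2 difference of 0.21 beside 0.07 over all genes. Rpl37 was among those higher (0.35, limma adjusted p = 0.025). The share of all genes called in this comparison was 9.61%. At an unadjusted p below 0.05 the counts were 41 higher and 0 lower, whereas Rps3a1 lay 0.8 log2 units below NEMOIEC-KO.

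Apon encodes apolipoprotein N, a secreted protein known mainly from liver, and lies at chr10:128254096-128255896 on the plus strand, 40.2 kb from Il23a (chr10:128296139-128298752). It is the member nearest to its targeted gene. Its FPKM was 1.02, 2.97, 1.39, 1.76 and 0.993 in the libraries labelled Il23a-/- (1.62 ± 0.814, SD, n = 5), and 0.0131 to 0.261 in the other 20, with the highest of those in NEMOIEC-KO replicate 3. All 5 Il23a-/- libraries lay above all others. In fragments (1 fragment is worth 0.0148 FPKM at median depth, and 18 of 18 low values were whole within 0.1) this is 76, 195, 98, 115 and 47 in Il23a-/- and 1 to 19 elsewhere. The fitted log2 difference from the mean of the other groups was 1.82 (SE 0.12). Apon was the only single-genotype gene of Il23a-/- at these settings.

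The closest neighbours of Apon, Gm and Rik names left out, did not share its rise. Spryd4, Timeless (a replication fork and clock protein), Stat2 (an interferon signalling factor) and Il23a lie 1.16 to 42.3 kb away, and 0 of these 4 were called between Il23a-/- and NEMOIEC-KO (limma adjusted p = 0.62 to 0.91), nor had any an unadjusted p below 0.05. The share over all genes was 0.083%, 16 genes. Within 5 Mb of Il23a, 2 of 102 tested genes were called (1.96%), both higher. Gls2, a mitochondrial glutaminase 0.0861 Mb away, averaged 1.7 ± 0.311 FPKM in Il23a-/- and 0.632 ± 0.181 in NEMOIEC-KO (log2 difference 0.96, SE 0.17, adjusted p = 0.023). Atp23, a mitochondrial protease and assembly factor 1.39 Mb away, averaged 6.95 ± 0.919 against 3.68 ± 0.694 (0.84, SE 0.14, adjusted p = 0.014). Neither gene overlapped between these groups, and NEMOIEC-KO differed from Nemofl/fl by -0.06 and -0.03. Within 1 library code neither was called (Gls2 0.82, adjusted p = 0.3, and Atp23 1.1, adjusted p = 0.19), nor with Xist RNA as a covariate (0.83, adjusted p = 0.12, and 0.69, adjusted p = 0.11). With only both groups in the fit the differences stay the same by construction and the adjusted p was 0.054 and 0.083.

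Other apolipoprotein genes did not follow Apon. Of 14 tested with limma, 0 were called in Il23a-/- against NEMOIEC-KO, and 0 had an unadjusted p below 0.05, while 5 were higher and 0 lower in NEMOIEC-KO than in Nemofl/fl (5 and 2 at an unadjusted p below 0.05), a share near the 32.2% of all genes, among them Apol6 (2.01, limma adjusted p = 0.00011) and Apoe (0.81, adjusted p = 0.0043), the lipid carrier of macrophages and liver.

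Zfp991 and Lrmda were high in the libraries labelled Il12b-/-. Zfp991 belongs to a dense cluster of KRAB-type zinc finger genes on distal chromosome 4 (chr4:147132038-147180579, plus strand), a family known for silencing of transposable elements. Its FPKM was 3.97, 6.28, 5.47, 7.01 and 2.43 in Il12b-/- (5.03 ± 1.84, SD, n = 5) and 0.219 to 1.83 in the other 20. The groups did not overlap, and the lowest Il12b-/- library was replicate 5. The log2 difference was 2.14 (SE 0.22) from the mean of the other groups.

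Zfp991 also has near-identical copies, so its value is uncertain as that of 1 locus. Znf41-ps, 99.5% identical, averaged 0.0875 FPKM in Il12b-/- and 0.28 to 0.476 elsewhere. Zfp992, 99.3% identical, averaged 1.47 in Il12b-/- and 1.14 to 1.31 elsewhere. Of 7 other tested zinc finger genes of this cluster (16 listed), Zfp990 was higher in Il12b-/- than in NEMOIEC-KO (1.49) and Zfp984 lower (-0.82, limma adjusted p = 0.034). Zfp990 did not exceed 0.177 FPKM outside Il12b-/-. It passed the filter of 0.2 FPKM only through that genotype, so no p is given for it. The median of the 7 was 0.15 beside 0.11 over all genes. Between NEMOIEC-KO and Nemofl/fl, limma called 0 of the 7, and 2 were lower at an unadjusted p below 0.05.

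Lrmda, a gene named for leucine-rich melanocyte differentiation and linked to albinism in people, spans chr14:22019712-23056085. It had 1.34, 1.21, 2.24, 1.74 and 1.38 FPKM in Il12b-/- (1.58 ± 0.418). Il23a-/- libraries were intermediate, with 1.03, 0.311, 0.617, 0.91 and 1.17 FPKM (0.807 ± 0.344). The lowest Il12b-/- value exceeded the highest Il23a-/- value only narrowly. The remaining groups overlapped, with means of 0.248 ± 0.244 in NEMOIEC-KO, 0.209 ± 0.105 in Il12a-/- and 0.09 ± 0.101 in Nemofl/fl. The log2 difference from NEMOIEC-KO was 1.51 (SE 0.2) in Il12b-/- and 0.81 (SE 0.2) in Il23a-/-, so Lrmda marks Il12b-/- by degree. Of the melanocyte markers Tyr, Tyrp1, Dct and Pmel, 3 of 4 averaged below 0.2 FPKM in every group, and their sum was 1.09 to 1.59 in Il12b-/- and 0.955 to 1.92 in the other libraries. Of 10 tested melanosome genes, 2 were higher in Il12b-/- than in NEMOIEC-KO and 1 lower, beside 19.9% of all genes called, led by Hps1 (0.63, limma adjusted p = 0.0025), part of a complex for lysosome-related organelles.

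Pdzd7, Wnt8b and Stk25 were lowest in Il12b-/- but also varied among the other genotypes. Pdzd7 (chr19:45026906-45045717, minus strand) encodes a scaffold protein of the Usher complex of sensory hair cells. Nemofl/fl libraries had 8.22, 8.17, 9.26, 6.7 and 8.25 FPKM (8.12 ± 0.917, SD, n = 5). NEMOIEC-KO libraries had 6.37, 1.44, 0.908, 2.48 and 2.77 (2.79 ± 2.14), and Il12b-/- had 0.797, 0.758, 0.705, 0.459 and 0.537 (0.651 ± 0.146). Il12b-/- was uniformly low and NEMOIEC-KO was spread from near that level to near Nemofl/fl. Il12a-/- had 0.666, 4.98, 5.46, 4.58 and 3.92 (3.92 ± 1.91), with replicate 1 inside the Il12b-/- range. Il23a-/- had 1.73, 4.93, 3.31, 1.29 and 6.88 (3.63 ± 2.32). From highest to lowest the order was Nemofl/fl, Il12a-/-, Il23a-/-, NEMOIEC-KO and Il12b-/-, and the middle 3 overlapped. The log2 difference of Il12b-/- was -1.31 (SE 0.42) from NEMOIEC-KO and -2.91 (SE 0.42) from Nemofl/fl.

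Wnt8b (chr19:44493472-44514273, plus strand), a secreted Wnt ligand of the developing brain, lies 513 kb from Pdzd7 and showed a like order at lower levels. It was listed at 0 in all 5 Il12b-/- libraries, so no fold is given. Nemofl/fl had 1.26, 1.21, 1.9, 1.54 and 1.21 FPKM (1.42 ± 0.299), and NEMOIEC-KO had 0.5, 0.132, 0.0681, 0.131 and 0.229 (0.212 ± 0.171). Il12a-/- had 0, 0.468, 0.789, 0.875 and 0.772 (0.581 ± 0.359), with the same replicate 1 lowest as for Pdzd7, and Il23a-/- had 0.27, 0.584, 0.262, 0.111 and 0.511 (0.348 ± 0.195). Every Nemofl/fl library lay above every library of the other genotypes.

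Members of both families that passed the test lay in the other direction. Of 9 other tested Wnt ligands, 5 were higher and 0 lower in Il12b-/- than in NEMOIEC-KO (6 and 0 at an unadjusted p below 0.05), where 19.9% of all genes were called, with a median log2 difference of 0.48 beside 0.11 over all genes. Wnt6 (0.64, limma adjusted p = 0.0027) and Wnt5b (0.72, adjusted p = 0.0044) had the smallest p, and both were lower in NEMOIEC-KO than in Nemofl/fl (-0.69 and -0.64). Of 5 tested Usher partners of PDZD7, 2 were higher in Il12b-/- than in NEMOIEC-KO and 0 lower (3 and 1 at an unadjusted p below 0.05). These were Cib2 (0.83, adjusted p = 0.0028) and Whrn (0.5, adjusted p = 0.046), and both were lower in NEMOIEC-KO than in Nemofl/fl (-0.91, adjusted p = 0.0009, and -0.6, adjusted p = 0.013). Wnt6, Wnt5b, Cib2 and Whrn thus lay nearer to Nemofl/fl in Il12b-/- than in NEMOIEC-KO, and Pdzd7 and Wnt8b lay farther from it.

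Stk25 (chr1:93619751-93658659, minus strand) encodes a germinal centre kinase of the STRIPAK complex. Nemofl/fl had 192, 193, 207, 203 and 239 FPKM (207 ± 19.2, SD, n = 5). NEMOIEC-KO had 359, 342, 323, 303 and 334 (332 ± 20.7), and Il12b-/- had 182, 208, 193, 173 and 170.4 (185 ± 15.7). NEMOIEC-KO lay above both of the others without overlap, and Il12b-/- overlapped with Nemofl/fl. Il12a-/- (259 ± 34.4) and Il23a-/- (257 ± 12.1) lay between. The log2 difference of Il12b-/- was -0.84 (SE 0.08) from NEMOIEC-KO and -0.16 (SE 0.08) from Nemofl/fl. Of 18 other STRIPAK and STK25 partner genes, 2 were higher and 1 lower in Il12b-/- than in NEMOIEC-KO, a share near the 19.9% of all genes. Stk26, a sister kinase, was higher (1.03, limma adjusted p = 0.00017) and had been lower in NEMOIEC-KO than in Nemofl/fl (-1.19, adjusted p = 2.4e-05), the reverse of Stk25.

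Setting NEMOIEC-KO beside Nemofl/fl involves no mutant cytokine allele and asks which of the 10 genes differ with epithelial loss of NEMO and the colitis it brings. It shares its NEMOIEC-KO libraries with the comparisons that chose the genes. At limma adjusted p below 0.05, 4 of the 10 were called, beside 32.2% of all tested genes (6202). Stk25 (log2 difference 0.68, SE 0.08, adjusted p = 6.6e-06) and Rps3a3 (0.42, SE 0.13, adjusted p = 0.017) were higher. Wnt8b (-1.45, SE 0.22, adjusted p = 6.4e-05) and Pdzd7 (-1.6, SE 0.42, adjusted p = 0.007) were lower. The change of Rps3a3, from 5.77 ± 1.2 to 7.79 ± 0.689 FPKM, is small beside its 514 FPKM in Il12a-/-.

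Rps3a1, Rps3a2, Zfp991 and Lrmda did not pass this test. Differences were 0.04 for Rps3a1 (limma adjusted p = 0.73), 0.33 for Rps3a2 (0.059), 0.12 for Zfp991 (0.77) and 0.3 for Lrmda (0.25), with standard errors of 0.09 to 0.28. Hist1h2al and Apon passed the filter on low values in 5 and 6 libraries, all but 1 of them of the genotype they mark. Their levels in NEMOIEC-KO and Nemofl/fl (0.0681 and 0.0432 FPKM for Hist1h2al, 0.111 and 0.0296 for Apon) are too low for this test to say anything about them. In tissue RNA, fewer cells of a type and less RNA per cell cannot be told apart. Smooth muscle markers were lower in NEMOIEC-KO than in Nemofl/fl for 5 of 8 genes (summed FPKM 1546 to 4558 against 2559 to 9072), and T cell markers were higher for 8 of 8 (15.6 to 45.7 against 4.02 to 10.4). Colonocyte markers summed to 2194 to 4214 FPKM against 5143 to 6066 without overlap (3 of 9 genes lower, 2 higher), and neutrophil markers to 9.56 to 536 against 1.17 to 7.74 (4 of 5 higher). The part of colonocytes and neutrophils in the member differences was not tested. With the smooth muscle markers as a covariate, the difference of Pdzd7 was -0.89 with an adjusted p of 0.12.

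**Figure D3:**
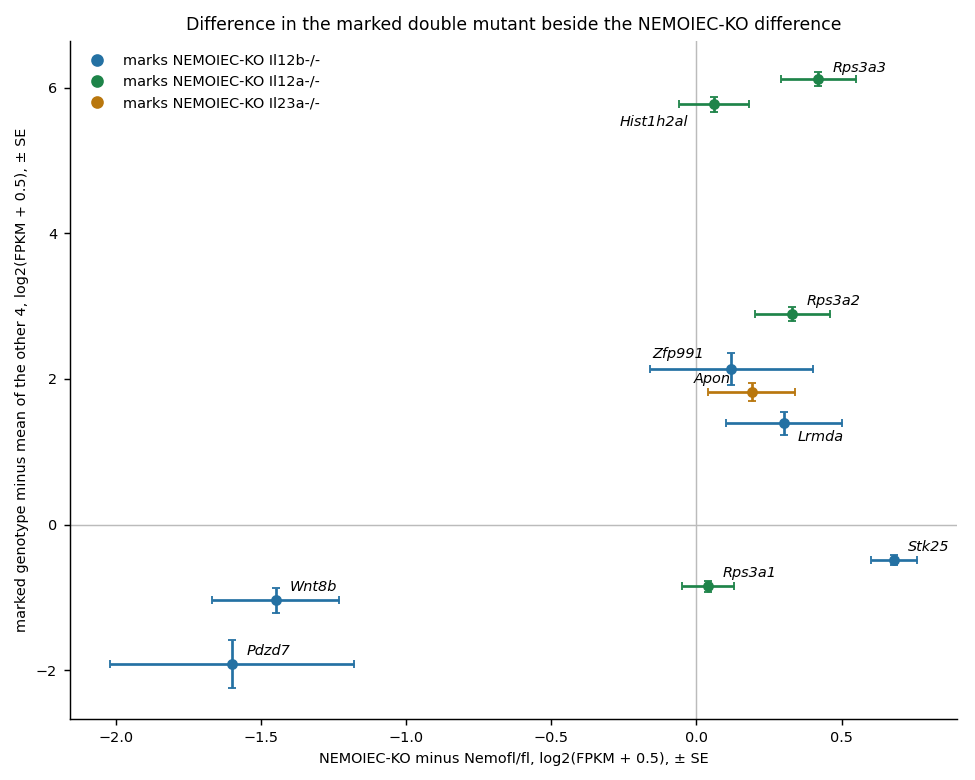
Vertical axis, the difference between the genotype each gene marks and the mean of the other 4; horizontal axis, the difference between NEMOIEC-KO and Nemofl/fl, both on the log2(FPKM + 0.5) scale with standard errors and coloured by the genotype marked. Rps3a3 and Hist1h2al lie at 6.12 and 5.77 on the vertical and 0.42 and 0.06 on the horizontal axis, while Stk25 lies at -0.49 and 0.68 and Pdzd7 at -1.91 and -1.6.

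To see whether a gene moves with the severity of inflammation apart from genotype, the log2 level was regressed on a score within genotypes. The score is the mean log2(FPKM + 0.5) of 16 genes induced by interferon gamma (such as Gbp2, Cxcl9 and Ciita) and stands in for colitis, since no histology is used here. It averaged 5.36 ± 0.68 in NEMOIEC-KO, 5.11 ± 0.85 in Il23a-/-, 3.46 ± 0.62 in Il12a-/-, 2.86 ± 0.2 in Il12b-/- and 2.43 ± 0.12 in Nemofl/fl (SD, n = 5). Il12a-/- replicate 1 had the highest score of its group, 4.45. This regression was chosen after seeing the data.

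Within genotypes, 2 of the 10 genes had a slope at limma adjusted p below 0.05, beside 17.4% of all tested genes. Pdzd7 was lower by 1.02 log2 units for each unit of the score (slope -1.02, SE 0.15, adjusted p = 0.00013). When the smooth muscle score was added, the slope was -0.83 (adjusted p = 0.011), where 3.06% of all genes were called. Within 1 library code of 16 libraries it was -1.12 (adjusted p = 0.0031, 11.1% of all genes called), and leaving out any 1 library gave -1.18 to -0.86. Wnt8b had a slope of -0.36 (SE 0.11, adjusted p = 0.03), which did not pass with the smooth muscle score (-0.19, adjusted p = 0.47), within 1 library code (-0.45, adjusted p = 0.058) or without Il12a-/- replicate 1 (-0.21, adjusted p = 0.18). The smooth muscle score itself fell with the interferon score within genotypes (r = -0.59, n = 25).

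The remaining 8 genes had no slope past the threshold. Zfp991 had 0.37 (SE 0.16, adjusted p = 0.1) and Lrmda 0.17 (SE 0.12, adjusted p = 0.35). Stk25, though higher in NEMOIEC-KO, had 0.03 (SE 0.05, adjusted p = 0.69). Slopes were 0.01 for Rps3a1, 0.04 for Rps3a2 and -0.04 for Rps3a3 (adjusted p = 0.76 to 0.88). For Hist1h2al and Apon, which are near 0 outside the genotype they mark, the absence of a slope is uninformative. The slope of Pdzd7 was fitted within genotypes and does not compare the levels of groups. Il12b-/- libraries had scores of 2.71 to 3.1 and the lowest mean Pdzd7 of the 5 groups. No slope was fitted within Il12b-/- alone.

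Pdzd7 and Wnt8b moved together from mouse to mouse. After removing genotype means and leaving out Il12b-/-, where Wnt8b is at 0, Pearson's r was 0.86 and Spearman's rho 0.83 over 20 libraries. Without the 2 libraries farthest from the median, r was 0.74, and within 1 library code it was 0.91 (n = 11). No other pair was examined in this way. The pair was chosen with its values known, each being the gene closest to the other over all 25 libraries (r = 0.93), so no test is given. The 2 genes share libraries and chromosome 19. Both also had a negative slope on the score within genotypes (-1.02 and -0.36), which was not taken out.

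**Figure D4:**
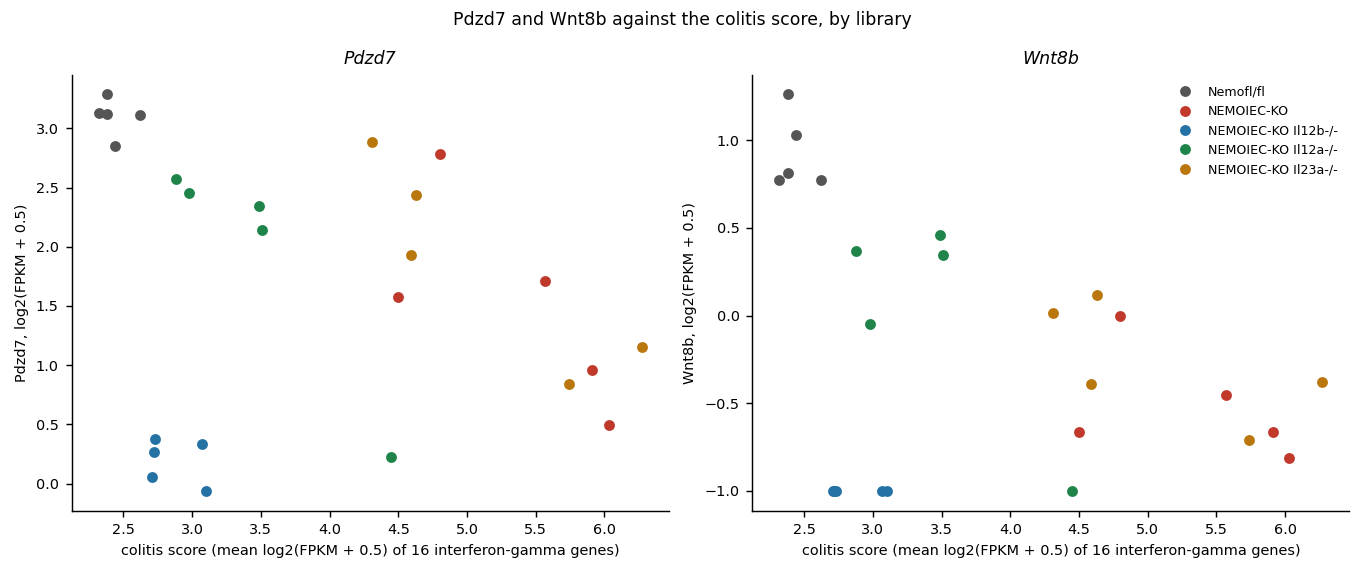
log2(FPKM + 0.5) of Pdzd7 and Wnt8b against the interferon gamma response score, 1 point per library, coloured by genotype. Il12b-/- points lie at low score and low expression, apart from the Nemofl/fl points at low score and high expression, and within the other genotypes Pdzd7 declines as the score rises.

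Distance from the targeted gene separates the members. Apon lies 40.2 kb from Il23a and Rps3a1 lies 17.4 Mb from Il12a, and the other 8 are not on the chromosome of the gene targeted in the genotype they mark. The single-genotype genes as a whole showed where such genes gather. In Il12a-/-, 7 of 11 lie on chromosome 3, between 86137940 and 98859794, a span of 12.7 Mb that does not include Il12a itself (chr3:68690644-68698547). Chromosome 3 holds 5.31% of the tested genes. None of the 11 lies within 5 Mb of Il12a and 3 lie within 20 Mb. Hsd3b1, a steroid dehydrogenase in that span, averaged 1.06 ± 0.532 FPKM in Il12a-/- and 0.071 in the other 20 libraries.

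In Il12b-/-, 15 single-genotype genes were all higher, and most lie away from chromosome 11, where Il12b is. Chromosome 7 holds 8 of them between 16944682 and 24333936 (7.39 Mb) and chromosome 4 holds 3 between 142083972 and 147180579 (5.1 Mb), Zfp991 among them. These chromosomes hold 8.09% and 6.1% of the tested genes. Tescl on chromosome 7 averaged 1.32 ± 0.458 FPKM in Il12b-/- and 0.0896 elsewhere. On chromosome 4, Zfp990 averaged 1.05 ± 0.278 against 0.0293 and Tmem51os1 averaged 3.29 ± 0.824 against 0.899. Chromosome 11 holds 2 (Il12b and the pseudogene Gm12663), and chromosomes 6 and 14 hold 1 each (Far2 and Lrmda). Far2 was named after its values were seen. Without Il12b-/- replicate 4 there were 9 such genes and without Il12a-/- replicate 2 there were 7 in Il12a-/-.

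**Figure D5:**
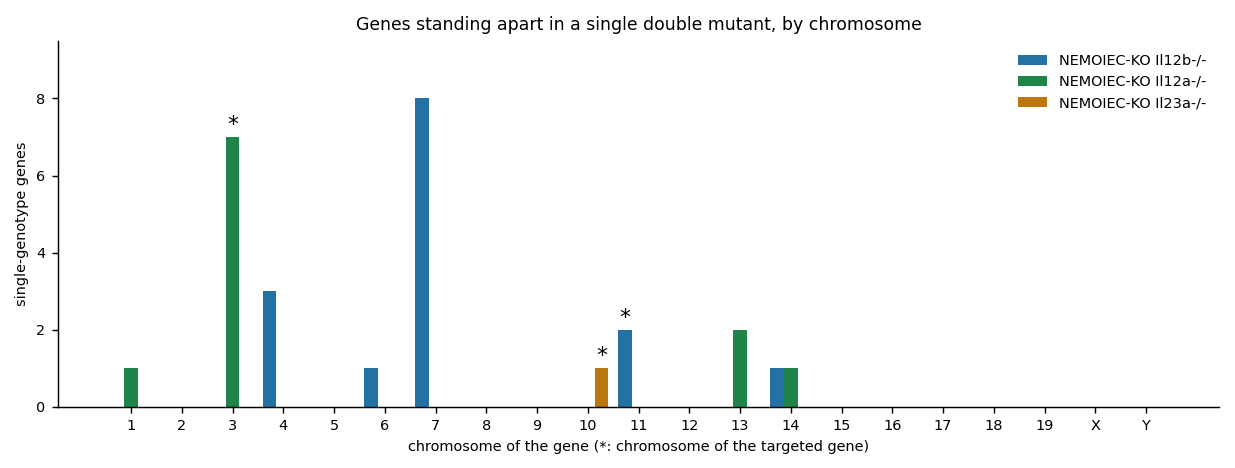
Number of single-genotype genes on each chromosome for the genotypes labelled Il12b-/-, Il12a-/- and Il23a-/-, with an asterisk at the chromosome of the targeted gene. Il12b-/- has 8 on chromosome 7 and 3 on chromosome 4 against 2 on chromosome 11, Il12a-/- has 7 on chromosome 3, and Il23a-/- has 1 on chromosome 10.

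The direct comparison of Il12b-/- with Il12a-/-, in which 79 genes (0.41%) were called, is 1 of the comparisons that define single-genotype genes, so its calls include those of both genotypes by construction. Its bins of 10 Mb with most calls were chromosome 3 from 90 to 100 Mb (14 of 183 tested genes), chromosome 7 from 10 to 20 Mb (11 of 137) and chromosome 4 from 140 to 150 Mb (7 of 116).

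Around the targeted genes themselves the picture differed by genotype. Within 5 Mb of Il12a, 2 of 42 tested genes were called in Il12a-/- against NEMOIEC-KO (4.76%, against 9.61% over all genes). Among them was Tiparp (-0.44, limma adjusted p = 0.043), an enzyme of the PARP family. Within 5 Mb of Il12b, 18 of 63 were called in Il12b-/- against NEMOIEC-KO (28.6%, against 19.9%), 5 higher and 13 lower. Among the leading ones are interferon-inducible GTPases that lie together more than 4 Mb from Il12b, such as Ifi47 (-3.17, adjusted p = 1.1e-05), Tgtp1 (-3.76, adjusted p = 0.00021) and Irgm1 (-1.89, adjusted p = 0.00036). Ifi47 was higher in NEMOIEC-KO than in Nemofl/fl by 5.04. Irgm1 is also 1 of the 16 genes of the score.

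The nearest 2 tested genes on each side of each member were examined for a shared change. Predicted genes with Gm or Rik names were left out, and for Rps3a2 the neighbours reached 4889.6 kb away. Of 16 neighbours of the 4 genes that mark Il12a-/-, 2 were called against NEMOIEC-KO (12.5%, against 9.61% over all genes): Glt28d2 near Rps3a1 was lower (-0.54, limma adjusted p = 0.015) and S1pr3 near Hist1h2al was higher (0.79, adjusted p = 0.032). Sh3d19, 7.41 kb from Rps3a1, and Pde4d, which spans Rps3a3, were not called (adjusted p = 0.14 and 0.93). Among all tested genes within 500 kb, Gm and Rik names included, the share called was higher for 3 of these 4 members. It was 2 of 8 for Rps3a1 (25%), 1 of 5 for Rps3a3 (20%), 1 of 6 for Hist1h2al (16.7%) and 0 of 1 for Rps3a2. Of 20 neighbours of the genes that mark Il12b-/-, 4 were called (20%, against 19.9%), all higher: Lzts2 and Kazald1 near Pdzd7, and Farp2 and Thap4 near Stk25. Thap4 had the smallest p (0.41, adjusted p = 0.00051). Pdzd7 and Stk25 lay in the opposite direction to these neighbours. Within 500 kb, calls were 2 of 11 tested genes for Pdzd7, 0 of 4 for Zfp991 and 1 of 15 for Wnt8b. For Stk25 and Lrmda they were 3 of 21 and 0 of 8. Lzts2 overlaps Pdzd7 and Farp2 overlaps Stk25, and whether counting used the strand is not given in the sources used here, so reads of overlapping genes may not be separated.

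Over all 25 libraries, the genes with the most similar pattern were ranked by Pearson's r of log2 values, as a description of libraries that share genotype. Rps3a1 was closest to Scnm1 (0.84) and Mrpl9 (0.79), both on chromosome 3. Rps3a2 was closest to Rps3a3 (0.99), Rps3a3 to Hist1h2al (0.99) and then Rps3a2 (0.99), and Hist1h2al to Rps3a3 (0.99) and Gm3608 (0.99). Zfp991 was closest to Zfp990 (0.89) and to Il12b itself (0.86), and Lrmda to Il12b (0.76) and Tmem51os1 (0.75). Pdzd7 was closest to Wnt8b (0.93) and to its neighbour Sfxn3 (0.81), and Wnt8b after Pdzd7 to Rab6b (0.83). Stk25 was closest to Trim40 (0.95) and Ttc22 (0.94), and Apon to Zfp335 (0.77).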

How the data were processed

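RNA from distal colon was sequenced as poly(A)-selected, stranded libraries read in pairs of 76 bases, per the labels' protocols. The authors deposited 1 table of FPKM values per gene and library. TopHat2 2.0.10, Cufflinks 2.1.1, DESeq2 1.10.1 and GRCm38 are named in the submitters' processing notes, without their roles. Of 49452 identifiers, 49109 matched GENCODE M21, used for positions and transcript sequences. FPKM gives no counts, so absolute depth is unknown and no counting interval is given.

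Values were transformed to log2(FPKM + 0.5) and genes that reached 0.2 FPKM in 5 or more libraries were tested with limma 3.58.1 (trend, 1 mean per genotype, all 25 libraries, R 4.3.3), two-sided, with Benjamini-Hochberg adjustment over 19266 genes. P-values measure the spread between mice. Copies were found with BLAST 2.17.0 between annotated transcripts. The fit was tested on simulated data. The members and gene lists were chosen with earlier results of these data known. Named by rule were the members, the targeted genes and the 2 nearest tested genes on each side, Gm and Rik names left out. The rule also named up to 6 called genes within 5 Mb of a targeted gene and 4 single-genotype genes per genotype. The 2 most similar genes and the 2 smallest p of each list were named by it too. A gene that this rule names is not reported here. Alternatives were other pseudocounts, filters and scalings, replicate, library code, smooth muscle, interferon score and Xist terms, and leaving out libraries. Lists of other cell types served as a check, and not every list that moved is described above. Between NEMOIEC-KO and Nemofl/fl, limma also called 3 of 5 macrophage markers higher and 2 of 5 neuron and glia markers lower (32.2% of all genes called). In Il12b-/- against NEMOIEC-KO, 3 of 4 tested liver markers were higher (19.9% of all genes called). The part of these cell types in the member differences was not tested.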

Additional observations from a re-analysis of the deposited data

Results flagged for a closer look

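In 4 of 49 groups of 5 libraries tested, 1 library stood apart by Dixon's criterion at 95%, where chance gives about 1 in 20 groups. Rps3a1 in Nemofl/fl replicate 1 had 843 FPKM, where the other 4 had 1018 to 1074. Rps3a1 in Il12b-/- replicate 2 had 1396 FPKM, where the others had 1052 to 1129.5. Hist1h2al in Il12b-/- replicate 3 had 0.112 FPKM, about 1 fragment, where the others were listed at 0. Lrmda in Nemofl/fl replicate 2 had 0.262 FPKM, where the others had 0 to 0.0732. None of these values enters the range of the genotype that the gene marks.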

How the results depend on the processing

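No member changed the sign of its difference in the genotype it marks under any alternative that could be fitted. Log2 values ranged from -0.89 to -0.81 for Rps3a1, 2.83 to 2.94 for Rps3a2, 6.03 to 6.2 for Rps3a3, 4.85 to 7.76 for Hist1h2al, 1.24 to 3.27 for Apon, 1.76 to 2.66 for Zfp991, 0.98 to 2.3 for Lrmda, -3.16 to -1.57 for Pdzd7 and -0.62 to -0.45 for Stk25. Hist1h2al fails the filter when an Il12a-/- library is left out, and Apon fails the filter of at least 1 FPKM. Apon also fails the main filter within 1 library code, where only Il23a-/- replicates 1 to 4 reach 0.2 FPKM (1.02, 2.97, 1.39 and 1.76). Over all members and alternatives, a call between NEMOIEC-KO and Nemofl/fl was lost with its sign kept in 5 cases. Among them, Rps3a3 was lost within 1 library code (0.48, adjusted p = 0.057) and with the score (0.54, 0.4), at differences no smaller than its 0.42. The loss for Pdzd7 with smooth muscle is given above, and the remaining cases are not listed here. Rps3a2 passed with median-of-ratios scaling (adjusted p = 0.013), quantile normalization (0.02), within 1 library code (0.027), without NEMOIEC-KO replicate 1 (0.007) and without Nemofl/fl replicate 2 (0.045). The interferon score is close to the genotype itself, and the cause of other shifts was not tested.

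Calls between NEMOIEC-KO and Nemofl/fl (6202) numbered 2383 with the smooth muscle covariate, 33 with the interferon score and 4250 to 6664 leaving out 1 replicate. For Il12b-/- against NEMOIEC-KO (3833) they numbered 741 within 1 library code, 2468 with smooth muscle, 63 with the score and 2653 to 4508 leaving out 1 replicate. For Il12a-/- (1851) they numbered 29, 158 and 13, with 478 in a fit of both groups only and 582 (without Il12a-/- replicate 2) to 4830 (without Il12a-/- replicate 1). For Il23a-/- (16) they numbered 0, 120 and 26, with 4 under the Xist covariate, 9 in both groups only and 6 to 112 (the last without Il12a-/- replicate 1).

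Calls within 5 Mb of Il12b (18) numbered 7 within 2 Mb, 69 within 20 Mb, 10 within 1 library code, 0 with the score and 13 to 20 leaving out 1 replicate. For Il12a (2) they numbered 1 within 2 Mb, 17 within 20 Mb, 1 with no filter, 1 with at least 1 FPKM, 0 within 1 library code, 1 with smooth muscle, 0 with the score and 1 to 8 leaving out 1 replicate. For Il23a (2) they numbered 0 within 1 library code, 0 with Xist and 0 to 2 leaving out 1 replicate. Single-genotype genes of Il12b-/- (15) numbered 5 with the score and 9 to 16 leaving out 1 replicate, those of Il12a-/- (11) 7 to 13, and those of Il23a-/- (1) 0 at 1 FPKM, 2 with either other scaling, 0 within 1 library code and 1 to 3 leaving out 1 replicate. Both values of 0 for Il23a-/- come from fits in which Apon did not pass the filter and was not tested.

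Replicate numbers did not pair the mice: deviations of same-numbered libraries had a median r of 0.0071 over 50 pairs, against 0.00856 over 200 others. With the replicate block, 8 genes were called for Il23a-/- against NEMOIEC-KO, 1 of them within 5 Mb of Il23a.

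Signs reversed between NEMOIEC-KO and Nemofl/fl for Rps3a1 (-0.06 with quantile normalization, -0.02 to 0.08 leaving out 1 replicate, the lowest without Nemofl/fl replicate 1), Zfp991 (-0.3 with smooth muscle, -0.96 with the score), Pdzd7 (1.41 with the score) and Lrmda (-0.19 with the score). With the score, Tgtp1, Irgm1 and Tgtp2 were 0.46, 0.4 and 0.55 in Il12b-/- against NEMOIEC-KO. Slopes on the score reversed for Rps3a1 (-0.03) and Apon (-0.16) within 1 library code, for Hist1h2al (0.11) and Stk25 (-0.01) with smooth muscle, and for Hist1h2al without Il12a-/- replicate 3 (0.01).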
